A study of Mus musculus with 8 samples.

Results

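The cytoplasmic poly(A)-binding protein genes and the genes of their Paip partners were followed through total RNA and ribosome footprints of mouse testis with and without Miwi (Piwil1), a PIWI protein of germ cells. The 8 genes were taken by symbol: Pabpc1, Pabpc2, Pabpc4, Pabpc6 and Pabpc1l encode poly(A)-binding proteins, and Paip1, Paip2 and Paip2b encode proteins that bind them. They are 8 of 21949 genes in the deposited tables, with 39 of 99671 transcripts. Each gene was represented by its transcript of highest mean count over the 8 libraries. All 8 were among the 16051 genes that passed the filter on low counts and were tested.

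The groups were Miwi-null ribosome-protected fragments (RPF), WT RPF, Miwi-null total RNA and WT total RNA, with 2 libraries each. All came from whole testes of C57BL/6 mice at postnatal day 24, when the first wave of germ cells has entered the round spermatid stage. The labels call the animals WT and Miwi-null and give no further allele or agent. No animals are named there, so the spread behind a p-value is that between libraries and may be technical. An RPF library holds the mRNA pieces that ribosomes shield from nuclease, and its ratio to RNA is called translational efficiency (TE).

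Cytoplasmic poly(A)-binding protein coats the mRNA tail and holds the cap-side initiation factor eIF4G, so that both ends of the mRNA meet in a closed loop. Paip1 binds it and favours translation, whereas Paip2 and Paip2b displace it from poly(A) and repress translation. Spermatocytes and round spermatids store many mRNAs with long tails for later use, and in mice Paip2 is known to be needed for the timing of translation late in spermiogenesis. Pabpc2 is an intronless relative of Pabpc1 known as a testis form, and Pabpc6 is a further relative. Pabpc4 is a broadly made form, and Pabpc1l, also called ePAB, is known from oocytes and early embryos.

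Total counts over the chosen transcripts ran from 11130949 to 12721791 in null RNA and from 13874636 to 15592797 in WT RNA. They were 11662661 and 28334622 in null RPF replicates 1 and 2, and 28054424 and 17735638 in WT RPF replicates 1 and 2. A count was worth 0.0353 to 0.0898 CPM, the count scaled to library size. Piwil1 had 46 and 26 counts in null RNA, against 8215 and 7165 in WT RNA, and 37 and 94 counts in null RPF, against 14206 and 6868 in WT RPF. Levels of cell type markers differed between the genotypes. The 12 elongating spermatid markers, with Prm1, Prm2 and Tnp1 among them, summed to 2278 to 2282 CPM in null RNA and 17220 to 17560 CPM in WT RNA, and all 12 were called lower in null RNA and in null RPF. The 14 round spermatid markers summed to 1899 to 1912 CPM in null RNA and 3896 to 4109 CPM in WT RNA, and 8 were called lower. The 10 Leydig cell markers summed to 2514 to 2521 CPM in null RNA and 1231 to 1246 CPM in WT RNA, with 5 called higher and 1 lower. The 14 markers of leptotene to pachytene spermatocytes summed to 4371 to 4376 CPM in null RNA and 4759 to 4818 CPM in WT RNA, with 5 called higher and 4, Piwil1 itself among them, lower. Of the other lists, 6 of 12 spermatogonial, 8 of 12 Sertoli, 8 of 10 peritubular myoid and 3 of 8 endothelial markers were called lower in null RNA and none of these higher, and of 10 macrophage markers 2 were higher and 1 was lower. These shifts move with genotype as every result on null against WT does, and their part in those results was not tested. In whole tissue, fewer cells of a type and less RNA per cell cannot be told apart.

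The footprint replicates stood apart in an unusual way. Over 10171 genes, the log2 difference between replicates 1 and 2 in null RPF went with the opposite difference in WT RPF (Pearson r = -0.808, across genes that share these libraries). The other pairs of groups gave r of -0.107 to 0.0733. Null RPF replicate 2 thus stood with WT RPF replicate 1, the libraries of 28334622 and 28054424 counts, and null RPF replicate 1 with WT RPF replicate 2. Among these genes 0.924% in null RPF and 1.72% in WT RPF differed at least 2-fold between replicates, against 0.0688% in null RNA and 0.059% in WT RNA. Paip2 and, less so, Pabpc1 lie along this axis, as does Pabpc1l on few counts (0.614 in null RPF and -0.349 in WT RPF). Pabpc4, Paip1, Paip2b and Pabpc6 had smaller differences of opposite sign. Those of Pabpc2 were small and of the same sign (0.014 and 0.078). A fit without 1 footprint library leaves this axis unbalanced between the genotypes, which bears on every such fit below.

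**Figure D1:**
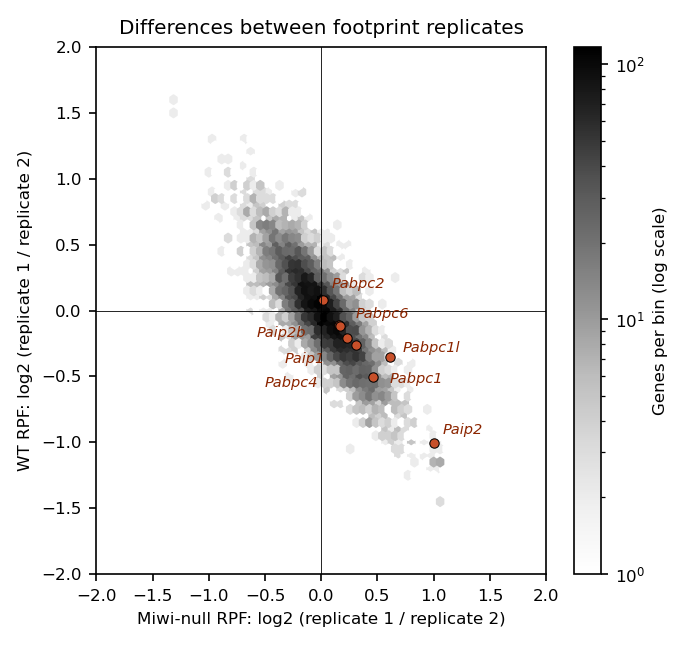
Log2 ratio of replicate 1 to replicate 2 in Miwi-null RPF (x axis) and WT RPF (y axis) for 10171 genes (grey bins, darker for more genes on a log scale), with the 8 poly(A)-binding protein and partner genes as orange points. The cloud runs from upper left to lower right, and Paip2 lies near its end at 1.004 on the x axis and -1.003 on the y axis.

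Per length of coding sequence, in the authors' FPKM (fragments scaled to coding length and library size), the genes spanned over 3 orders of magnitude in RNA. Pabpc1 was highest and Pabpc2 next, followed by Pabpc6 and Paip2 in null testes and by Paip2 and Pabpc6 in WT testes. Paip1 and Paip2b lay within 1 SD of each other, and Pabpc4 and Pabpc1l were far below. In footprints the order was another one: Paip2 (747.4 ± 324.6 FPKM in null RPF and 988.2 ± 430.4 FPKM in WT RPF, SD, n = 2) and Pabpc1 (699.6 ± 126.6 FPKM in null RPF and 600.7 ± 122.4 FPKM in WT RPF) led within each other's spread, with Paip1 and Pabpc2 next. The plot of levels in every library shows both orders, with the Paip genes standing higher in footprints and most Pabpc genes higher in RNA.

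**Figure D2:**
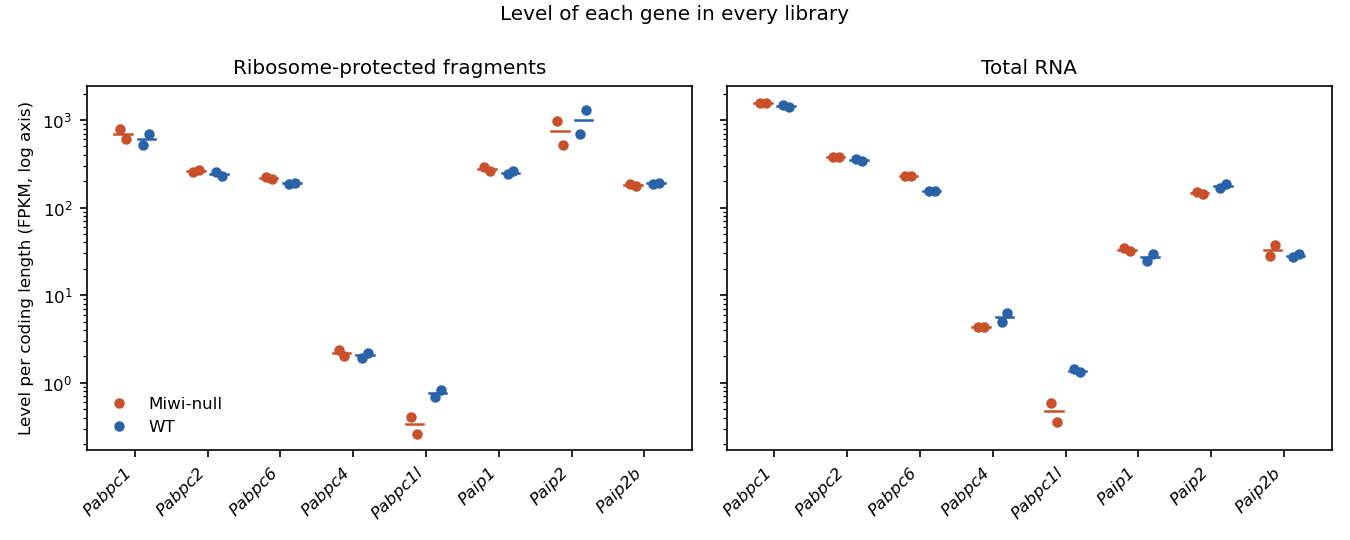
FPKM per coding length (log axis) of each gene in footprints (left) and total RNA (right), with Miwi-null libraries in orange left of WT libraries in blue, a point per library and a bar at the mean of 2. Pabpc1 RNA averaged 1577 FPKM in null and 1449 FPKM in WT, and Pabpc1l RNA averaged 0.474 FPKM in null and 1.38 FPKM in WT.

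Pabpc1, the main cytoplasmic poly(A)-binding protein of somatic cells (chr15:36595658-36609581, GRCm38.p6; coding length 1908 bases), was among the most abundant mRNAs of the testis. Its RNA level was 1583 and 1571 FPKM in null testes, against 1472 and 1426 FPKM in WT testes. That put it at rank 6 and 7 of 15538 genes in the null RNA libraries and at rank 20 in both WT RNA libraries. A rank also moves when other abundant genes change, as the elongating spermatid markers above did, and these FPKM carry no TMM scaling. The footprint level of Pabpc1 was 789.1 and 610.1 FPKM in null RPF, against 514.1 and 687.2 FPKM in WT RPF. The footprint groups overlapped while the RNA groups did not. With 2 libraries per group, groups often separate without a difference between genotypes, so a lack of overlap here and below is no test. Neither difference passed the test: the log2 change was 0.06 ± 0.18 in RNA (SE; edgeR adjusted p = 0.838) and 0.26 ± 0.18 in RPF (edgeR adjusted p = 0.323). The RPF change was 0.02 without null RPF replicate 1 and 0.07 without WT RPF replicate 1, and it was 0.50 without null RPF replicate 2 and 0.54 without WT RPF replicate 2, where it was called (edgeR adjusted p = 0.0255). A fit to the 4 RNA libraries alone, which called 59.3% of the 15259 genes it tested, called an RNA change of 0.12 (edgeR adjusted p = 0.0208), whereas counts summed over transcripts gave -0.03.

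Footprints of Pabpc1 were low for its RNA in both genotypes. Its TE was 0.4986 and 0.3883 in null replicates and 0.3493 and 0.4819 in WT replicates. In the model, its RPF share over its RNA share was -1.37 ± 0.18 (log2, SE) in null testes and -1.58 ± 0.19 in WT testes, a level below which 19.9% of the genes tested lay in null and 15% in WT. This TE did not differ between genotypes beyond the spread of the replicates, with a log2 change of 0.21 and a 95% interval of -0.37 to 0.79. Its sign turned without null RPF replicate 1 (-0.04) and without WT RPF replicate 1 (-0.06). These values are for the chosen transcript. The authors' deposited table gives log2 TE changes of 0.3186 and 0.4375 for Pabpc1 in replicates 1 and 2. In replicate 2 the chosen transcript went the other way, with a lower TE in null than in WT. An annotated Pabpc1 transcript of 379 bases had a TE of 0.27 and 0.384 in null replicates and 0.174 and 0.117 in WT. In RNA its count was 9.32% and 9.26% of that of the chosen transcript in null, against 16.6% and 16.7% in WT. Another, of 353 bases, had a TE of 0.771 and 0.672 in null and 0.881 and 0.714 in WT. Transcript counts share fragments, and no test was made.

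Pabpc2 (chr18:39773497-39776082; coding length 1884 bases) was the second poly(A)-binding protein mRNA of these testes. Its RNA level was 381.5 and 376.9 FPKM in null testes and 358 and 336.7 FPKM in WT testes. In footprints Pabpc2 had 253.3 and 266.6 FPKM in null RPF and 255.4 and 228.2 FPKM in WT RPF. Pabpc2 differed little between replicates and between genotypes: its log2 change was 0.06 ± 0.08 in RNA and 0.15 ± 0.08 in RPF (SE; edgeR adjusted p = 0.597 and 0.213). The intervals of the 2 changes reached 0.24 in RNA and 0.34 in RPF. The fit to the 4 RNA libraries alone called its RNA change at 0.12 (edgeR adjusted p = 0.0271). Its footprints were low for its RNA, by -0.75 ± 0.08 in null and -0.84 ± 0.08 in WT (log2, SE), a smaller shortfall than that of Pabpc1.

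Pabpc6 (chr17:9666497-9669704; coding length 1929 bases) was the gene of the family that rose in null RNA. Its RNA level was 231.3 and 232.1 FPKM in null testes, against 154.8 and 153.7 FPKM in WT testes. The replicates of a genotype nearly coincided and the groups did not overlap. The log2 RNA change was 0.52 ± 0.09 (SE; 1.43-fold; edgeR adjusted p = 0.00249), with a 95% interval of 0.32 to 0.73. Footprints of Pabpc6 were 224.5 and 214.5 FPKM in null RPF, against 187.9 and 190.7 FPKM in WT RPF, which do not overlap. That log2 RPF change of 0.26 ± 0.09 did not pass (edgeR adjusted p = 0.0664), and it was called without WT RPF replicate 2 (0.31, edgeR adjusted p = 0.0378) and without null RPF replicate 2 (0.35, edgeR adjusted p = 0.0488).

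The TE of Pabpc6 was 0.9707 and 0.9242 in null replicates and 1.214 and 1.241 in WT replicates. The groups did not overlap, and the log2 TE change of -0.26 ± 0.13 (SE) was not called (edgeR adjusted p = 0.203). It was called without TMM scaling, at -0.41 (edgeR adjusted p = 0.0433). The authors' deposited table gives log2 TE changes of -0.3224 and -0.425 for Pabpc6 in replicates 1 and 2. They restate the FPKM-based TE values above and are no separate evidence. In the model its footprint share in WT testes did not differ from its RNA share beyond error (log2 -0.02 ± 0.09, edgeR adjusted p = 0.838). In null testes it fell short by -0.28 ± 0.09 (edgeR adjusted p = 0.0183). The TE values above use the authors' FPKM, and the model scales libraries by other totals. Whether Pabpc6 footprints stand above its RNA in WT testes thus depends on the scaling. In null testes both the FPKM ratio and the model put them below its RNA. The null shortfall was no longer called without null RNA replicate 1 (edgeR adjusted p = 0.103), null RNA replicate 2 (0.108) or null RPF replicate 2 (0.0834), nor with no filter on low counts (0.0576). The test between the genotypes is the TE change above.

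Pabpc1, Pabpc2 and Pabpc6 resemble each other in sequence, and how fragments that map to several places were treated is not given in the sources used here, so the split among them is uncertain. Summed over the 5 Pabpc genes, RNA was 2192 ± 10.6 FPKM in null and 1958 ± 47.4 FPKM in WT (SD, n = 2 libraries each). The summed footprint level was 1182 ± 125 FPKM in null RPF and 1034 ± 105 FPKM in WT RPF. Pabpc6 made up 10.5% and 10.6% of the RNA sum in null testes, against 7.78% and 7.99% in WT testes. In footprints its share overlapped, with 17.7% and 19.6% in null RPF and 19.6% and 17.2% in WT RPF. Of the RNA sum, Pabpc1 made up 71.9% in null libraries against 73.9% and 74.1% in WT libraries.

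Pabpc4 (chr4:123282303-123298925; coding length 1980 bases), the form also known from activated platelets and T cells, was rare here. Its RNA level was 4.35 and 4.31 FPKM in null testes, against 5 and 6.2 FPKM in WT testes. Its footprint level was 2.38 and 2.04 FPKM in null RPF and 1.93 and 2.19 FPKM in WT RPF. The RNA groups did not overlap and the footprint groups did, and neither change passed: the log2 change was -0.44 ± 0.18 in RNA (SE; edgeR adjusted p = 0.0818) and 0.13 ± 0.19 in RPF (edgeR adjusted p = 0.679). The 4 RNA libraries alone called an RNA change of -0.37 (edgeR adjusted p = 0.0244). The log2 TE change of 0.56 ± 0.26, the largest of the 8 genes, was not called (edgeR adjusted p = 0.185). Its footprints were low for its RNA in both genotypes, by -1.20 ± 0.19 in null and -1.77 ± 0.18 in WT (log2, SE). These values rest on 57 to 209 counts per library.

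A RefSeq transcript start of Pabpc4, 608 bases inside the gene span given above, is unusually rich in A. In human cells an A-rich stretch near the start of PABPC1 mRNA is known as a site where the protein limits its own translation. No start of Pabpc1 or Pabpc6 was in the set of starts used, and those of Pabpc2 and Paip2 are not reported here. The windows around the starts are shown for the other 4 genes from RefSeq (build GRCm38.p6). Each runs from 20 bases before the start to 30 bases from it on, 5′ to 3′ on the gene's strand, with runs of 3 or more A in capitals.
Pabpc4, chr4:123282891-123282940, plus strand: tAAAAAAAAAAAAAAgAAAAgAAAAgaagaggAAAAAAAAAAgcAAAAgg
Pabpc1l, chr2:164025204-164025253, plus strand: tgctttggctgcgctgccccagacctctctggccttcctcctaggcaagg
Paip1, chr13:119428580-119428629, plus strand: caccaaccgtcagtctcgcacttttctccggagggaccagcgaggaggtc
Paip1, chr13:119428882-119428931, plus strand: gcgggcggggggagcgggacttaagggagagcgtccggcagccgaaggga
Paip2b, chr6:83831712-83831761, minus strand: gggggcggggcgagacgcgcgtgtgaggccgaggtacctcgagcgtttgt
The first 30 transcribed bases of Pabpc4 were 70% A with a longest run of 10, a share reached by 0.0639% of 32851 RefSeq starts, whose median was 20%. The other 4 starts held 13.3% to 26.7% A, with no run over 2. The motif AAAAAA was found in the first 30 bases of 0.527% of all starts on the transcript strand, and of 1.16% counting either strand; overlapping matches count once per start. The match describes these letters only, and footprints here were counted over coding sequence.

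Pabpc1l (chr2:164024770-164050538; coding length 1821 bases) was the rarest of the 8 genes and the one that fell in both assays. It had 17 and 9 counts in null RNA, against 49 and 41 counts in WT RNA. In footprints it had 9 and 14 counts in null RPF, against 36 and 28 counts in WT RPF. No library of one genotype reached the other. The log2 change was -1.58 ± 0.33 in RNA (SE; 0.334-fold; edgeR adjusted p = 0.00628) and -1.22 ± 0.36 in RPF (0.429-fold; edgeR adjusted p = 0.0374). The RNA call ended without null RNA replicate 2 (edgeR adjusted p = 0.0565). The RPF call ended in DESeq2 (adjusted p = 0.127), in the 4 RPF libraries alone (edgeR 0.0991), with the replicate block (0.0718), with counts summed over transcripts (0.069), and without WT RPF replicate 2 (0.0806), without either WT RNA replicate (0.0701 each) or without null RPF replicate 2 (-0.75, 0.305).

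**Figure D3:**
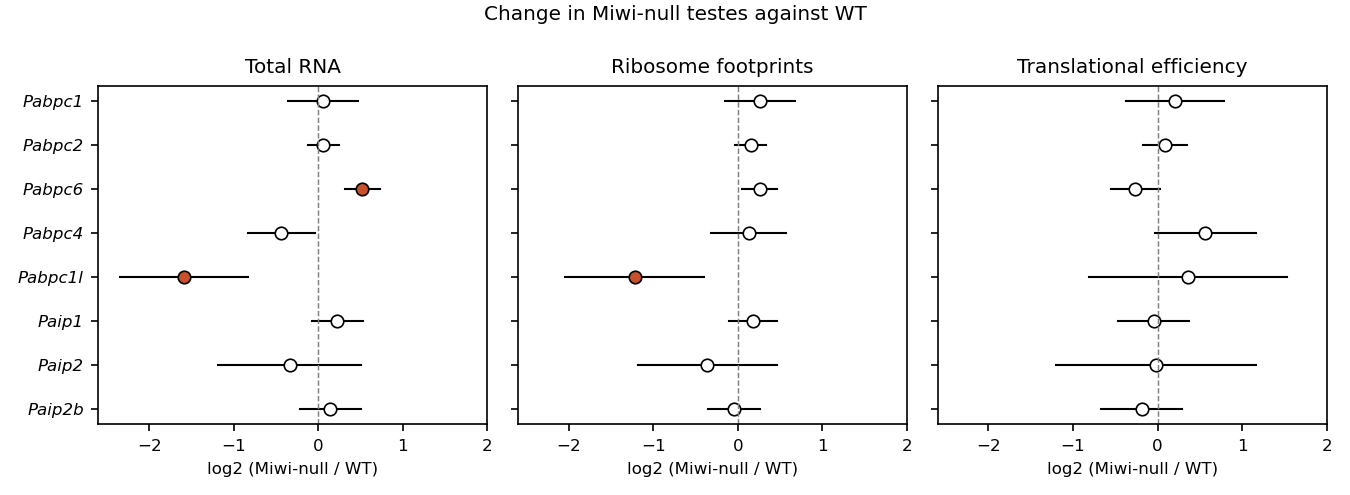
Log2 change of each gene in Miwi-null testes against WT in total RNA, footprints and TE (points), with 95% intervals from edgeR (bars); filled points passed an adjusted p of 0.05. Filled points are Pabpc6 (0.52) and Pabpc1l (-1.58) in RNA and Pabpc1l (-1.22) in footprints, and there is none in TE.

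Counted over the 8 genes, 1 was called higher and 1 lower in null RNA. The background was 37.3% of all genes tested, made up of 16.5% higher and 20.8% lower. In footprints 0 of the 8 were higher and 1 was lower, where 25.4% of all genes were called, 12% higher and 13.4% lower. In TE edgeR called 0 of the 8, where 14.9% of all genes were called, 7.36% higher and 7.56% lower; 0 reached an unadjusted p of 0.05 in edgeR, and DESeq2 called 0 of the 7 for which it gave an adjusted p, with none given for Pabpc1l. The median log2 change of the 8 was 0.06 in RNA, 0.14 in RPF and 0.04 in TE, beside -0.07, 0.00 and 0.04 over all genes tested. Without TMM scaling the median TE change of all genes was -0.10 in place of 0.04, and TE changes here are relative to that bulk. The fit gives footprint and RNA libraries of a gene a shared dispersion. Null RNA replicates differed little beyond counting error (chi-square per gene 1.18), WT RNA replicates more (3.85), and RPF replicates far more (22.4 in null, 44.1 in WT). The shared dispersion can thus widen errors in RNA and narrow them in RPF. Calls from the RNA libraries alone rest on a small spread that may be technical. In the 4 RNA libraries alone 7 of the 8 genes were called, where 59.3% of all genes were called, 29.7% higher and 29.6% lower: Pabpc6 (0.58), Paip1 (0.29), Pabpc2 and Pabpc1 (0.12 each) rose, and Paip2 (-0.28), Pabpc4 (-0.37) and Pabpc1l (-1.51) fell.

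The Paip genes carried many footprints for their RNA, in null and in WT testes alike. Paip1 (chr13:119428331-119460323; coding length 1452 bases), the partner that favours translation, had an RNA level of 34.3 and 31.7 FPKM in null testes and 24.8 and 29.2 FPKM in WT testes. Its footprint level was 289.2 and 262.6 FPKM in null RPF and 241.1 and 262.5 FPKM in WT RPF. Its TE was 8.43 and 8.28 in null replicates and 9.73 and 8.99 in WT replicates, so footprints outweighed RNA about as much in every replicate. The RPF share over the RNA share was 2.86 ± 0.14 in null and 2.91 ± 0.14 in WT (log2, SE; edgeR adjusted p = 3.24e-07 and 3.39e-07), above 95.6% of the genes tested in null and 96.8% in WT. Between genotypes its log2 change was 0.22 ± 0.13 in RNA (edgeR adjusted p = 0.215), 0.18 ± 0.13 in RPF (0.343) and -0.05 ± 0.18 in TE (0.899). The 4 RNA libraries alone called the RNA change at 0.29 (edgeR adjusted p = 0.00512).

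The transcripts of Paip1 did not share its footprints alike. A short annotated transcript of 568 bases had a TE of 39.6 and 35.1 in null replicates and 34.9 and 33.5 in WT replicates. The other 6 Paip1 transcripts, the chosen one included, had TE values of 5.61 to 11.5. In footprints its count was 72.9% and 67.2% of that of the chosen transcript in null RPF and 58.9% and 74.3% in WT RPF. In RNA the figures were 15.5% and 15.9% in null and 16.4% and 19.9% in WT. A fragment is counted for every transcript it overlaps, so these counts share fragments. The transcript was singled out after its values were seen, and no test was made.

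Paip2 (chr18:35598610-35617186; coding length 372 bases), the repressor that strips poly(A)-binding protein from the tail, was the most abundant of the Paip mRNAs. Its RNA level was 150.7 and 145 FPKM in null testes, against 169.7 and 187.8 FPKM in WT testes. Its footprint level was 976.9 and 517.8 FPKM in null RPF, against 683.9 and 1293 FPKM in WT RPF. The RNA groups did not overlap, while the footprint groups overlapped widely. Replicate 1 minus replicate 2 was 1.004 (log2) in null RPF and -1.003 in WT RPF. The log2 change was -0.34 ± 0.37 in RNA (SE; edgeR adjusted p = 0.507), -0.36 ± 0.36 in RPF (0.507) and -0.02 ± 0.52 in TE (0.99). In this fit, which has no block for the footprint replicates, the TE interval ran from -1.20 to 1.16, which holds a 2-fold change either way. Without null RPF replicate 2 the RPF change was 0.08 and the TE change 0.35. Without WT RPF replicate 2 they were 0.22 and 0.57, so both turned sign. The RPF change was -0.94 without null RPF replicate 1 and -0.75 without WT RPF replicate 1. Each of these fits leaves the axis of the footprint replicates unbalanced between genotypes, so the turn in sign does not measure the error of the change. The authors' deposited table, from the same FPKM, gives opposite log2 TE changes for Paip2, 0.6859 in replicate 1 and -0.947 in replicate 2. The shared dispersion carries the footprint spread into the RNA test. The 4 RNA libraries alone, whose replicate spread was small and may be technical, called an RNA change of -0.28 (edgeR adjusted p = 0.0023).

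Relative to RNA, Paip2 footprints were high in both genotypes: 2.14 ± 0.38 in null and 2.16 ± 0.38 in WT (log2, SE; edgeR adjusted p = 0.000875 and 0.000828). Its TE was 6.48 and 3.57 in null replicates and 4.03 and 6.88 in WT replicates. Paip2b (chr6:83806058-83831741; coding length 408 bases), the second repressor of this kind, had less RNA than Paip2. Its RNA level was 28 and 37.6 FPKM in null testes and 27 and 29.5 FPKM in WT testes. In footprints Paip2b had 184 and 174.5 FPKM in null RPF and 188.4 and 193.1 FPKM in WT RPF. The RPF share of Paip2b over its RNA share was 2.25 ± 0.15 in null and 2.44 ± 0.15 in WT (log2, SE; edgeR adjusted p = 1.9e-06 and 1.35e-06). None of its changes between genotypes passed, with 0.14 ± 0.16 in RNA, -0.05 ± 0.14 in RPF and -0.19 ± 0.21 in TE (log2, SE; edgeR adjusted p = 0.511, 0.841 and 0.593).

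Both repressors have short coding sequences. With a trend on coding length removed, the log2 ratio was 0.90 in null and 1.18 in WT for Paip2, and 1.06 in null and 1.49 in WT for Paip2b. The same step turned the RNA change of Paip2 between genotypes to 0.03 and its TE change to -0.28, and gave Paip2b an RNA change of 0.48 and a TE change of -0.42. These are values without a test. The RNA change of Paip2b was -0.08 and its TE change 0.04 without null RNA replicate 2.

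Footprints over RNA were called in 7 of 8 genes in null testes and in 7 of 8 in WT testes, which by itself is near the background of 75.5% in null and 74.2% in WT. All 3 Paip genes were higher in both genotypes, where 38.4% of all genes were called higher in null and 37.7% in WT. Of the 5 Pabpc genes 4 were called lower in each genotype, where 37.1% of all genes were called lower in null and 36.4% in WT. The 5th was Pabpc1l in null (-0.84 ± 0.41, edgeR adjusted p = 0.0943) and Pabpc6 in WT.

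**Figure D4:**
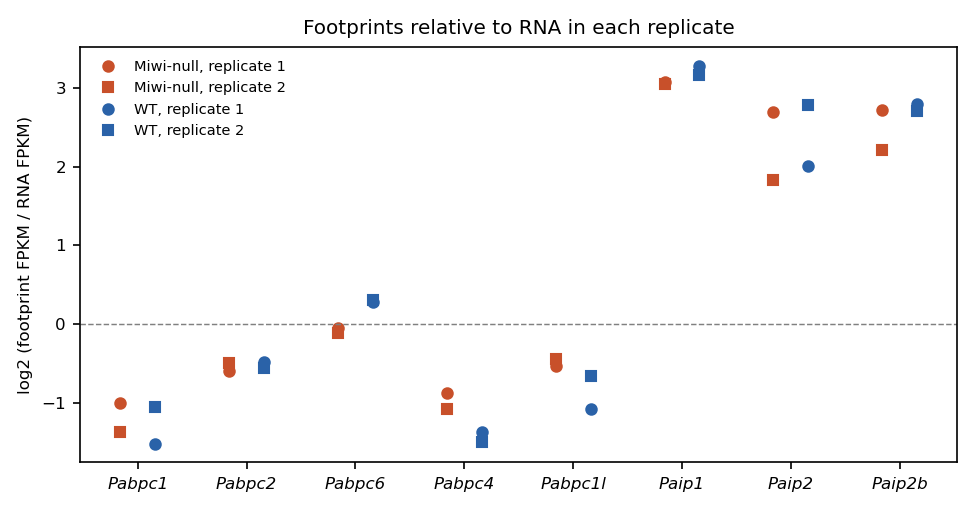
Log2 ratio of footprint FPKM to RNA FPKM for each gene, with Miwi-null replicates in orange left of WT replicates in blue, circles for replicate 1 and squares for replicate 2. The Paip genes lie between 1.84 and 3.28, the Pabpc genes between -1.52 and 0.31, and for Pabpc6 both null points lie below both WT points.

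The RNA and footprint levels of 3 of the genes were compared with those of 10170 genes with a mean of at least 10 CPM, by Pearson's r of log2 CPM over the 8 libraries. Among the genes most like Pabpc1 were Prpf40b (0.9983) and Madd (0.9956). Those most like Pabpc2 were Flna (0.9988), Pde4dip (0.9984) and Slc6a16 (0.9984). Those most like Paip2 were Clns1a (0.9943), Eif3a (0.9943) and Cnot6l (0.994), of which Cnot6l is a deadenylase subunit and Eif3a an initiation factor subunit. The points share libraries and the split between footprints and RNA, and these r are descriptions without a test.

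Other genes that act on the poly(A) tail were followed in the same fits, and their counts are to be read against the shares of all genes called, 37.3% in RNA, 25.4% in RPF and 14.9% in TE. Of 3 tested among other poly(A)-binding proteins, Zc3h14, a nuclear zinc-finger protein, rose in null RNA (0.53 ± 0.09, edgeR adjusted p = 0.00177). Pabpn1, the nuclear protein that guides tail synthesis, fell in null RNA (-0.78 ± 0.11, edgeR adjusted p = 0.000687) and in null RPF (-0.67 ± 0.10, edgeR adjusted p = 0.00185). Of 30 tested proteins that bind Pabpc proteins, 4 rose and 7 fell in null RNA, 4 rose and 0 fell in null RPF, and 6 rose and 4 fell in TE, near the background in RNA, below it in RPF and above it in TE. Among them Larp4b, an RNA-binding protein that contacts Pabpc1, rose in RNA (0.66 ± 0.09, edgeR adjusted p = 0.00093). Boll, a germ cell RNA-binding protein of the Daz family, rose in RNA (0.60 ± 0.09, edgeR adjusted p = 0.000895) and fell in TE (-0.80 ± 0.12, edgeR adjusted p = 0.00453). Msi1, a Musashi RNA-binding protein, fell in RNA (-0.71 ± 0.11, edgeR adjusted p = 0.00113), as did Igf2bp1, an mRNA-binding protein that was rare here (-1.21 ± 0.24, edgeR adjusted p = 0.00483). Ybx2, a protein that packages stored germ cell mRNAs, rose in TE (0.90 ± 0.13, edgeR adjusted p = 0.00427). Its RNA fell (-0.59 ± 0.09, edgeR adjusted p = 0.00166), and its RPF rose by less (0.31 ± 0.09, edgeR adjusted p = 0.0412).

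On the cap side of the closed loop, 2 of 17 tested genes rose and 8 fell in null RNA, 0 rose and 2 fell in null RPF, and 3 rose and 1 fell in TE, above the background in RNA and TE and below it in RPF. Eif4g1, the scaffold that Pabpc1 holds, averaged 206.7 CPM in null RPF and 405.9 CPM in WT RPF (log2 -0.97 ± 0.10, edgeR adjusted p = 0.000185). Its RNA fell as well (-0.78 ± 0.10, edgeR adjusted p = 0.000544), and its TE change was not called (-0.20 ± 0.14, edgeR adjusted p = 0.383). Eif4h, a helper of the initiation helicase, fell in RNA (-1.19 ± 0.17, edgeR adjusted p = 0.000816) and rose in TE (1.19 ± 0.23, edgeR adjusted p = 0.0123), with 409.4 CPM in null RPF and 409.6 CPM in WT RPF. The TE call of Eif4h ended without any 1 of the 4 RNA libraries, at values within 0.94 to 1.44 over all alternatives. Eif3f, an initiation factor subunit, fell in RNA (-0.84 ± 0.14, edgeR adjusted p = 0.00214). Median changes of this list were -0.27 in RNA, -0.04 in RPF and 0.33 in TE.

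Of 25 tested genes of tail synthesis, 5 rose and 8 fell in null RNA, 3 rose and 5 fell in null RPF, and 2 rose and 3 fell in TE, above the background in each. Cpeb3, a regulator of cytoplasmic polyadenylation, fell in RNA (-1.0 ± 0.15, edgeR adjusted p = 0.00114) and in RPF (-1.07 ± 0.16, edgeR adjusted p = 0.00132). Its relative Cpeb4 rose in RNA (0.68 ± 0.12, edgeR adjusted p = 0.0024), and Cstf2, a subunit of the cleavage factor that precedes tail synthesis, fell in RPF (-0.68 ± 0.09, edgeR adjusted p = 0.000692). Papola, the canonical poly(A) polymerase, fell in TE (-0.86 ± 0.13, edgeR adjusted p = 0.00402). Its RNA rose (0.56 ± 0.09, edgeR adjusted p = 0.0016), and its RPF fell by less (-0.30 ± 0.09, edgeR adjusted p = 0.0366). Of 18 tested genes of tail removal, 4 rose and 1 fell in null RNA, 2 rose and 0 fell in null RPF, and 1 rose and 2 fell in TE, below the background in RNA and RPF and near it in TE. Cnot1, the scaffold of the CCR4-NOT deadenylase, averaged 1945 CPM in null RNA and 1069 CPM in WT RNA (log2 0.86 ± 0.08, edgeR adjusted p = 0.000118). Cnot1 also rose in RPF (0.61 ± 0.08, edgeR adjusted p = 0.000918). Cnot2, another subunit, rose in RNA (0.89 ± 0.09, edgeR adjusted p = 0.000185), and Parn, a separate poly(A) nuclease, fell in RNA (-0.76 ± 0.13, edgeR adjusted p = 0.00276). The plot of the lists gives every gene's change.

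**Figure D5:**
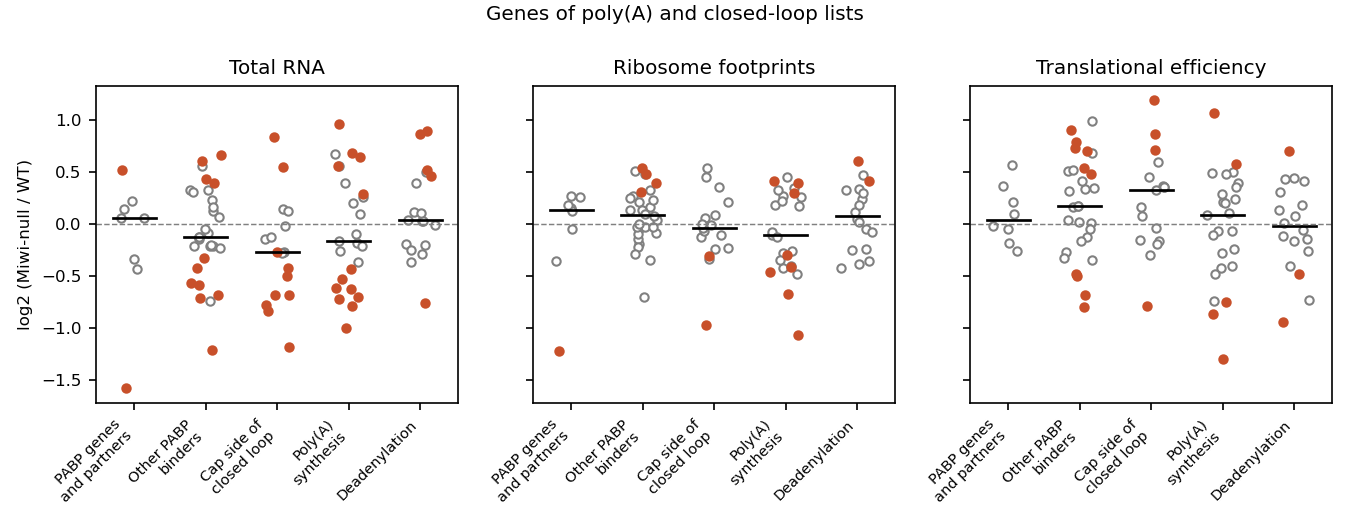
Log2 change in Miwi-null testes against WT for the 8 genes, 30 other binders of Pabpc proteins, 17 cap-side genes, 25 genes of poly(A) synthesis and 18 of deadenylation in RNA, footprints and TE (a point per gene, filled where called by edgeR, bar at the list's median). Filled points lie on both sides of 0 in every list in RNA and only in poly(A) synthesis in footprints, and none of the 8 genes is filled in TE.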

How the data were processed

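Total RNA and ribosome footprints were sequenced from WT and Miwi-null testes. Per the file headers, the authors deposited whole-number fragment counts per transcript, with no normalization, and an FPKM value that the authors computed from each count, the coding length and a library total. The log2 change in TE was deposited by the authors per gene from ratios of those FPKM values, without a replicate test. For Pabpc1, Pabpc4 and Paip1, which have several transcripts with a length, it differs from the value of the chosen transcript. Tools listed in the submitters' processing notes are STAR 2.5.0a, Bowtie 1.2.2 and cutadapt 2.5, with the build GRCm38. Which program counted fragments, and whether by strand, is not given in the sources used here. Of the lengths, 84.7% were multiples of 3, so they are coding lengths. The merged table was not used.

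Counts of the transcript with the highest mean were fitted in R 4.3.3 with edgeR 4.0.16: filterByExpr (minimum count 10, minimum total 15), TMM over 8 libraries and a robust quasi-likelihood model of 4 groups with 4 residual degrees of freedom. A call is an adjusted p (Benjamini-Hochberg, over 16051 genes) below 0.05. CPM values use TMM-scaled library sizes, and intervals are 95% intervals from the model. The procedure was tested on simulated data, where it recovered 81 of 100 2-fold changes in RNA and 55 of 100 in TE. Of 4-fold changes it recovered 91 of 100 in RNA and 82 of 100 in TE. It also called 5 unchanged genes in RNA and 3 in TE. The simulation drew every library independently, with the same dispersion for the RNA and footprint libraries of a gene. In the data, footprint replicates varied more than RNA replicates and were crossed between genotypes. The simulated counts therefore do not carry over to the RPF and TE tests. The members, gene lists and tests were chosen with earlier results of these data known. All 8 members are named, with the 3 genes most alike for 3 of them, of which 1 is not reported here. From the other lists a rule took up to 2 called genes of largest change per direction, contrast and list, 42 calls in 31 genes. The text gives the 21 that also held under every alternative and with any library left out, a choice made after seeing them. It adds the TE change of Eif4h and other changes of Ybx2, Eif4g1 and Papola. Alternatives included DESeq2 1.42.0.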

Additional observations from a re-analysis of the deposited data

How the results depend on the processing

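No value reversed its direction among the 8 genes' called results. Fitting an assay alone moved the count of genes called to 9041 in RNA, with 7 of the 8 members, and to 1983 in RPF, with 0 members. The RPF call of Pabpc1l, and with it the count of members called, was 0 in DESeq2, with the replicate block and with counts summed over transcripts. Without TMM scaling 1 member, Pabpc6, was called in TE, and 29.2% of TE calls were higher in place of 49.3%; TMM within each assay gave 39.0%, and without TMM 55.1% of RNA calls were higher in place of 44.2%. Leaving out a library gave 3249 to 7094 genes and 1 to 2 members called in RNA, 2936 to 5169 genes and 0 to 2 members in RPF, and 622 to 3636 genes in TE, the fewest without null RNA replicate 1 and the most without WT RPF replicate 2; the lone library is then assumed to vary like the others. A removed coding-length trend gave values only. The replicate numbers share only a number: with the replicate block 5022 genes were called in RNA, 3061 in RPF and 1237 in TE, and it changed no other call among the members than that of Pabpc1l in RPF. A block crossing the footprint replicates (WT RPF 1 with null RPF 2) was chosen after the data were seen. It called 9103 genes and 5 members in RNA, 8183 genes and 6 members in RPF, and 6539 genes and 3 members in TE. Among the members called in RPF were Paip2 (-0.36 ± 0.06) and Pabpc1 (0.27 ± 0.05, log2, SE). The labels give no such pairing and the block came from these same data, so its calls are no independent test. Of 42 calls taken from the wider lists, 31 held in the 9 other fits of each contrast and 21 also with each library left out. The cause of these shifts was not tested. Pabpc1l rests on 9 to 49 counts per library.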
